A study of Mus musculus with 148 samples.

Results

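The 6 genes described here are Ptgs1, Ptgs2, Ptges, Ptger4, Alox5ap and Ltc4s, taken by symbol from the 52542 gene rows of single-cell count tables of immune cells from mouse lungs and mammary tumors. All 6 symbols had a row. For each gene, the unique molecular identifiers (UMIs, counted RNA molecules) of the cells carrying 1 deposited cell label were summed per mouse and tissue where 10 or more such cells were sorted, and the sum was expressed per 1000000 UMIs (CPM). There were 285 such sums over 16 labels of monocytes, macrophages, neutrophils and dendritic cells, with 11256 cells and 5720 to 731354 UMIs per sum.

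The study followed the immune cells of breast cancer lung metastases over space and time. EO771-tdTomato cells, a mouse mammary carcinoma line carrying a red fluorescent protein, were injected into the mammary gland of female PA-GFP C57BL/6 mice at 8 weeks of age, and the tumor was removed 3 weeks later. All mice carry photoactivatable GFP, so that cells in a chosen spot of a lung section can be switched to green and sorted. In all, 148 plates from 27 mice gave 63 combinations of mouse and tissue. Normal lungs came from 3 mice without tumor, and Pre-MET lungs from 3 mice that bore the primary tumor, before its resection. Primary tumors came from 4 mice, of which 3 also gave the Pre-MET lungs. Relapse-free lungs came from 6 mice in which no metastasis was found after resection. In mice with metastases, sections held metastasis (MET, 13 mice) or distal normal tissue (14 mice), and photoactivation marked the MET Core (13 mice) and the MET Invasive margin (7 mice). Tumors, sections and most lungs were sorted as CD31- CD45+ cells, and cores and margins as CD31- photoactivated cells, with mouse 17's core also gated on CD45. The deposited labels give the photoactivation of mouse 17's margin as NON-MET and that of all other margins as ADJ. In the Relapse-free mice 6 and 7 some plates held CD31- photoactivated cells or CD31- CD45+ cells without photoactivation, and they were summed with the others. The model rests on 1 tumor line in 1 strain, and tissue called distal or normal is tissue in which no tumor fluorescence was seen.

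Prostaglandins and leukotrienes are lipid mediators that cells make from arachidonic acid released from their membranes. The cyclooxygenases encoded by Ptgs1 and Ptgs2 start the prostaglandin branch: Ptgs1 is present in many resting cells and in platelets, whereas Ptgs2 is an early response gene that inflammatory signals induce in myeloid cells. Ptges encodes the inducible synthase that forms prostaglandin E2, and Ptger4 encodes EP4, a receptor for it that raises cyclic AMP. Alox5ap encodes FLAP, the membrane protein that presents arachidonic acid to 5-lipoxygenase at the start of the leukotriene branch. Ltc4s encodes the synthase that joins leukotriene A4 to glutathione, which gives the cysteinyl leukotrienes known for constricting airways.

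The genes lie apart in the mouse genome (GRCm38, GENCODE vM21). Ptgs1 spans chr2:36230426-36252272 on the plus strand, Ptges spans chr2:30889471-30929863 on the minus strand, and Ptgs2 spans chr1:150100031-150108227 on the plus strand. Ptger4 spans chr15:5206661-5244187 (minus), Alox5ap chr5:149264767-149288153 (plus) and Ltc4s chr11:50236461-50238616 (minus). The cyclooxygenase genes are paralogues, of which Ptgs1 was near the lymphoid level in most myeloid labels, as described further on. The 250 bases upstream of each of their RefSeq starts (GRCm38.p6, plus strand, chr2:36230176-36230425 for Ptgs1 and chr1:150099781-150100030 for Ptgs2) are given here to set them side by side, with capitals marking GAGGAA, a purine-rich word bound by ETS factors such as PU.1, and TTGCGCAA, the palindrome of C/EBP factors.
Ptgs1: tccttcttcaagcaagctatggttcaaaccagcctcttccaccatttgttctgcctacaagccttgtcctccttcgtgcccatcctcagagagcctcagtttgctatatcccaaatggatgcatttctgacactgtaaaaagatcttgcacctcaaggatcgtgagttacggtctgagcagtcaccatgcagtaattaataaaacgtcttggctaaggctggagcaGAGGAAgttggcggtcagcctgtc
Ptgs2: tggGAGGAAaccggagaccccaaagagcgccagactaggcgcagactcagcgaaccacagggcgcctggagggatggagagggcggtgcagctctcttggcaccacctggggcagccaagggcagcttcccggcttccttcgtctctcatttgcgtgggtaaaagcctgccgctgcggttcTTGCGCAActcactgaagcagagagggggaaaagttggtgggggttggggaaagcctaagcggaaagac
Both strands of the 32851 RefSeq promoter entries were searched for the same words. TTGCGCAA stood at -69 to -62 of Ptgs2 and in 54 entries in all (0.164%), whereas GAGGAA, at -247 to -242 of Ptgs2 and -24 to -19 of Ptgs1, was in 23.3% of entries. The GC box GGGCGG was at -170 to -165 of Ptgs2 and in 32.7% of entries. TATAAA (12.4% of entries), CACGTG (6.02%), TGACGTCA (1.55%), TGACG (17.8%), TGANTCA (6.75%) and the NF-kB word (1.41%) had no match in either window. These matches describe letters and were not tested for binding.

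**Figure D1:**
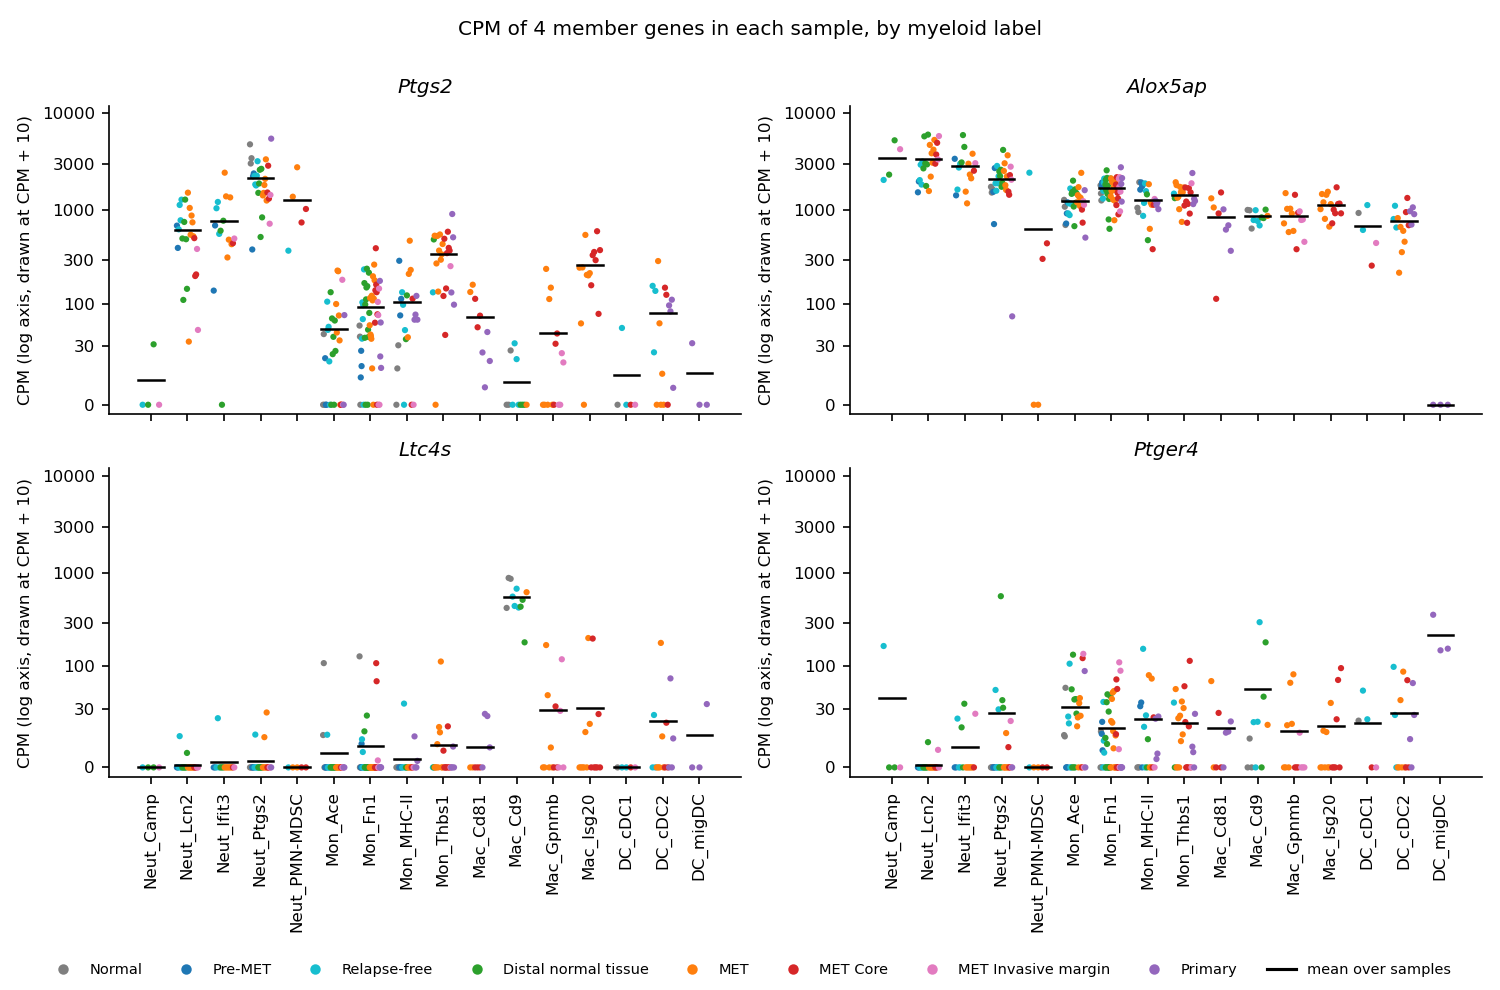
CPM of Ptgs2, Alox5ap, Ltc4s and Ptger4 by myeloid cell label, each point being the summed cells of 1 mouse and tissue (285 sums), coloured by tissue. The vertical axis is logarithmic and drawn at CPM plus 10, and black lines are label means. Ptgs2 reached its highest mean in Neut_Ptgs2 (2162 CPM), Ltc4s in Mac_Cd9 (553 CPM) and Ptger4 in DC_migDC (224 CPM), while Alox5ap was above 600 CPM on average in every label but DC_migDC, with the mean of Neut_PMN-MDSC (641 CPM) falling to 189 CPM without its 1 Relapse-free sample.

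The labels were made by clustering these same cells, so levels by label are described without a test. Of the labels with a gene in their name, 8 ranked first of the 16 labels for that gene, while Lcn2 ranked 2 in Neut_Lcn2, Ifit3 ranked 5 in Neut_Ifit3 and Isg20 ranked 7 in Mac_Isg20. Ptgs2 named Neut_Ptgs2, and its level there is what the name describes. In the 10 lymphoid labels, which serve as a comparison, label means were 0 to 21.1 CPM for Ptgs2, 6.58 to 89.99 for Alox5ap, 0 to 9.19 for Ltc4s, 7.49 to 44.2 for Ptger4, 0 to 6.397 for Ptgs1 and 0 to 2.77 for Ptges. For Ptger4 they are no background, since the highest of them was above all but 2 of the myeloid labels.

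Ptgs2 was highest in neutrophils. Neut_Ptgs2 held 2162 ± 1166 CPM (SD, n = 29 samples), with a range of 387 to 5496 and a median of 1891. It was followed by Neut_PMN-MDSC at 1262 ± 926 CPM (n = 5), Neut_Ifit3 at 778 ± 602 (n = 16) and Neut_Lcn2 at 621 ± 413 (n = 24, range 34.7 to 1519). The exception among neutrophils was Neut_Camp, which carries the granule genes of immature neutrophils, at 7.98 ± 15.96 CPM (n = 4), or 2 UMIs in 51 cells. Within samples that held both labels, Neut_Ptgs2 was above Neut_Lcn2 in 17 of 18 and above Neut_Ifit3 in 13 of 14. When each cell was thinned to 500 UMIs, 39.7% of Neut_Ptgs2 cells (593 of 1492), 18.9% of Neut_Ifit3 cells and 12.8% of Neut_Lcn2 cells still held a Ptgs2 UMI, against 0.413% of lymphoid cells. The unthinned shares were 49.6%, 25.5%, 19.02% and 1.22%, at median depths of 944.5 UMIs in Neut_Ptgs2 and 999 in lymphoid cells.

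Outside neutrophils, Ptgs2 was mainly in 1 monocyte label and 1 macrophage label. Mon_Thbs1 held 344 ± 215 CPM (n = 25) and Mac_Isg20 264 ± 168 (n = 15). All other labels were at 103 CPM or lower, from Mon_MHC-II (103 ± 113, n = 23) and Mon_Fn1 (91.0 ± 83.6, n = 54) down to Mac_Cd9 (7.15 ± 12.6, n = 11). In the same samples, Mon_Thbs1 exceeded Mon_Fn1 in 18 of 22, with means of 351 and 126 CPM, and Mac_Isg20 exceeded Mac_Gpnmb in 8 of 9. Thinned shares of cells with a Ptgs2 UMI were 14.1% in Mon_Thbs1 and 9.31% in Mac_Isg20 (unthinned 30.1% and 19.2%). Neighbours in the order of the 16 labels never differed by more than the larger of their SDs.

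Across tissues, Ptgs2 in all neutrophils together had its highest mean in Normal lungs among sums of 10 or more cells, where the 3 mice held 4524, 2573 and 3457 CPM (217 UMIs in 80 cells). Relapse-free lungs held 1679 ± 680 CPM (n = 5, 1181 to 2739), MET sections 1537 ± 1173 (n = 9, 80.1 to 3411) and MET Cores 1029 ± 824 (n = 6, 176 to 2575). Distal normal tissue held 870 ± 797 CPM (n = 9, 91.4 to 2606), Invasive margins 700 ± 515 (n = 5, 130 to 1384) and the 2 Primary tumors with 10 or more neutrophils 1317 and 4973. With sums of 5 or more cells the 4 Primary tumors held 4358 ± 3487 CPM, a mean above that of Normal lungs. Mice with metastases differed widely. In mouse 26 the distal, MET, core and margin neutrophils were all low, at 91.4, 80.1, 176 and 130 CPM, whereas those of mouse 36 held 2606, 3411, 1098 and 1384 CPM.

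**Figure D2:**
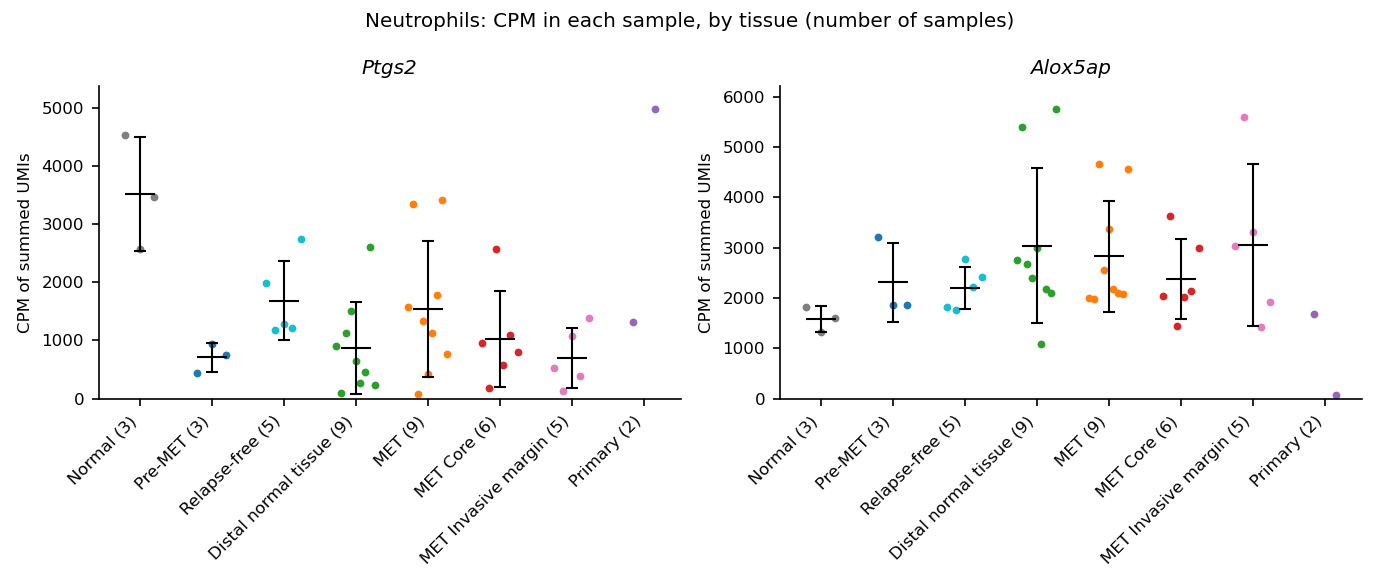
CPM of Ptgs2 and Alox5ap in all neutrophils by tissue, with 1 point per mouse and lines for the mean ± SD where 3 or more samples exist. The means of the 3 Normal and 3 Pre-MET lungs are 3518 and 713.5 CPM for Ptgs2, and 1582 and 2315 CPM for Alox5ap.

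Whether the lung changed before metastases were seen is addressed by Pre-MET against Normal lungs. Ptgs2 fell in neutrophils. The Pre-MET mice 8, 9 and 10 held 448, 941 and 751 CPM (11, 65 and 53 UMIs), a mean of 713.5 ± 249 (SD, n = 3), and the Normal lungs 3518 ± 977 (n = 3). Every Normal value was above every Pre-MET value, and the share of all genes that part in this way was not counted. The log2 fold change was -2.24 (SE 0.37) with an adjusted p of 0.00648 in edgeR's quasi-likelihood test with Benjamini-Hochberg adjustment over 377 genes. Of these genes 1.06% passed (4, of which 1 was lower, Ptgs2 itself). This was the only call among the 6 genes in the 25 fits of this kind: Ptgs2 passed the filter on low counts in 13 of them with an unadjusted p under 0.05 in 5, and Ptgs1, Ptges, Ptger4 and Ltc4s passed it in 0. It was lost when Normal mouse 1 (adjusted p 0.0726), Normal mouse 3 (0.0547), Pre-MET mouse 9 (0.0760) or Pre-MET mouse 10 (0.0918) was left out, at log2 fold changes between -2.41 and -1.99, and kept without Normal mouse 2 (0.0267) or Pre-MET mouse 8 (0.0195). It was also lost without the low-count filter (0.603) and in DESeq2 with poscounts size factors (0.986), and kept in DESeq2 with its default size factors (0.0133). Sums of 20 or more cells gave the fit without Normal mouse 1 again (0.0726). All Normal plates came from 1 sequencing batch that held no other tissue, so batch and group cannot be told apart.

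The make-up of the neutrophils also differed, with cells pooled over mice here and wherever shares of labels are given. Neut_Ptgs2 was clustered from these cells and named for Ptgs2, and the part of its share in the difference was not tested. Neut_Ptgs2 cells were 78.75% of 80 Normal neutrophils and 29.4% of 170 Pre-MET neutrophils, of which 36.5% were Neut_Lcn2 and 32.4% Neut_Ifit3. In the Neut_Ptgs2 label alone, Pre-MET lungs held 387, 2250 and 2403 CPM and Normal lungs 3045, 3453 and 4800. The log2 fold change of -1.14 (SE 0.56) had an adjusted p of 0.775 (unadjusted p 0.0584 from the quasi-likelihood model) where 1.51% of 199 genes passed. Cells of this label were clustered from the same counts and named for Ptgs2, so this fit cannot decide the difference over all neutrophils. The summed level of the neutrophil marker list was 98556 to 182536 CPM in Normal and 163521 to 243403 in Pre-MET neutrophils. The NK cell marker list summed to 126 to 192 CPM in Normal and 0 to 29.0 in Pre-MET neutrophils, and its part in the result was not tested.

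In all monocytes of the same lungs, Ptgs2 was at 27.3 ± 8.97 CPM in Pre-MET and 19.2 ± 13.03 in Normal lungs (n = 3 each; log2 fold change 0.37, SE 0.82, adjusted p 0.867, edgeR). The background of calls in that fit was 4.22% of 4953 genes. In Mon_MHC-II, a small part of these monocytes, Pre-MET mice 8, 9 and 10 held 294, 73.2 and 113 CPM (9, 2 and 3 UMIs) and Normal mice 1, 2 and 3 held 0, 13.7 and 31.0 (0, 1 and 1 UMIs). Ptgs2 did not pass the filter on low counts there (adjusted p 0.608 in edgeR without the filter, 0% called in the fit with it). Monocytes of every other tissue held more on average, from 88.7 ± 42.4 CPM in Invasive margins (n = 6) and 92.0 ± 27.0 in Relapse-free lungs (n = 6) to 212 ± 175 in MET Cores (n = 13), and these differences from Normal lungs were not tested.

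In the 3 mice that gave both tissues, Ptgs2 was higher in the primary tumor than in the Pre-MET lung. Neutrophils went from 448 to 2112 CPM in mouse 8, from 941 to 9029 in mouse 9 and from 751 to 1317 in mouse 10, with 8, 6 and 13 tumor neutrophils. Monocytes went from 31.7 to 104, from 33.3 to 283 and from 17.0 to 283 CPM, so each mouse moved the same way in both cell types. The exact 95% counting intervals of neutrophils in mouse 10 overlapped (562 to 982 CPM in lung, 882 to 1891 in tumor). With 3 pairs this was not tested. Lungs and tumors were dissociated with different programs, so handling cannot be told apart from tissue. Of the 2 batches with Primary plates, 1 held no other tissue. The tumor monocytes were sequenced more deeply, at medians of 2779 to 7798 UMIs per cell against 1138 to 1548 in Pre-MET lungs. Their labels differed too: Mon_Thbs1 and Mon_MHC-II were 37.2% and 45.3% of 503 Primary monocytes and 1.19% and 6.32% of 759 Pre-MET monocytes, of which 70.1% were Mon_Fn1. Within Mon_Fn1, Ptgs2 was 68.6 ± 76.2 CPM in Primary (n = 4) and 16.7 ± 8.54 in Pre-MET (n = 3), and the part of the labels in the difference was not tested.

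Metastasis sections were compared with distal tissue. In monocytes, Ptgs2 was 171 ± 106 CPM in MET (n = 13, 23.2 to 343, median 205) and 103 ± 64.4 in distal tissue (n = 14, 0 to 204, median 91.5). It was higher in the MET section of 10 of 13 mice, by a median of 22.8 CPM over all 13. The log2 fold change of 0.71 (SE 0.31) did not pass over 2098 genes (unadjusted p 0.0291 from the quasi-likelihood model, adjusted p 0.479), of which 1.38% were called. With the mouse as a block, which compares the tissues within mice, the log2 fold change was 0.71 (SE 0.28, adjusted p 0.226), and 140 of 4704 genes were called in place of 29. Mon_Thbs1 cells, the monocytes with most Ptgs2, reached 10 cells in 10 MET samples and in 1 distal sample. Within Mon_Fn1, the label that most samples share, Ptgs2 was 100 ± 79.6 CPM in MET and 104 ± 79.2 in distal tissue (n = 13 each) and did not pass the filter on low counts.

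In neutrophils the comparison of MET with distal tissue gave 3 of 6 mice with more Ptgs2 in MET and a log2 fold change of 0.68 (SE 0.51, adjusted p 0.999, edgeR). Within single labels the differences were 0.27 (SE 0.34) in Neut_Ptgs2, with 1915 ± 771 against 1679 ± 895 CPM (n = 6 each), and 0.63 (SE 0.58) in Neut_Lcn2, with 760 ± 465 (n = 7) against 550 ± 435 (n = 6). As Neut_Ptgs2 is named for Ptgs2, no conclusion on all neutrophils is drawn from the fit within it. In these 3 fits 0% of genes were called, and with the mouse as a block 0 to 2. Over the 12 of 25 fits in which edgeR called 0 genes, 5 to 173 genes had an unadjusted p under 0.05, and DESeq2 called 0 to 39.

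**Figure D3:**
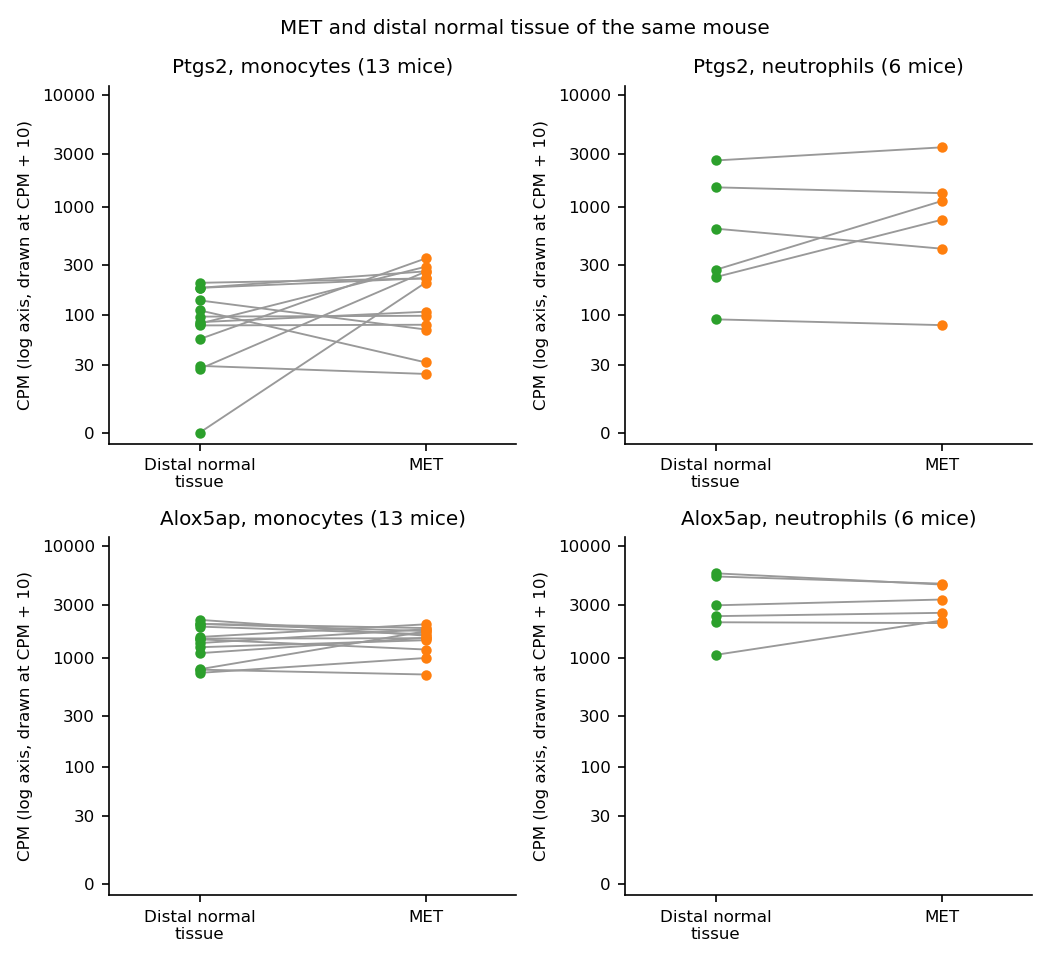
CPM of Ptgs2 and Alox5ap in distal normal tissue and MET sections, with lines joining the samples of the same mouse, for monocytes (13 mice) and neutrophils (6 mice). Ptgs2 in monocytes is higher in MET in 10 of 13 mice, and the lines run both ways in neutrophils, with 3 of 6 mice higher in MET.

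Macrophages held more Ptgs2 on average in MET than in distal tissue, at few counts. The 9 MET samples held 41.6 to 198 CPM (124 ± 62.3, 205 UMIs), whereas 5 of the 6 distal samples held none and that of mouse 23 held 56.6 CPM, which was 1 UMI. Distal sums were smaller, at 12757 to 35277 UMIs against 64813 to 362899 in MET. Samples without a count are thus weak readings, and the part of depth was not tested. MET was higher in all 5 mice with both tissues. The gene did not pass the filter on low counts for edgeR, in whose fit 9.23% of 1289 genes were called (119, and 194 with the mouse as a block). Without that filter the adjusted p was 0.000826 in edgeR (442 genes called), and DESeq2 gave a log2 fold change of 3.57 (SE 0.95, adjusted p 0.00947, 256 genes called). Neither fit pairs the sections by mouse, and with the mouse as a block Ptgs2 was not called. With only cells of 1000 UMIs or more, the adjusted p was 0.0706. The macrophage labels differed between these tissues: of 119 distal macrophages 59.7% were Mac_Cd9, the label with the least Ptgs2, and of 521 MET macrophages 39.9% were Mac_Isg20, the macrophage label with the most, and 8.83% Mac_Cd9. What part these shares had in the difference was not tested.

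Within the metastasis, Ptgs2 in macrophages was 195 ± 156 CPM in cores (n = 10) and 46.6 ± 39.2 in margins (n = 4). The log2 fold change of 1.85 (SE 0.68) had an unadjusted p of 0.0120 in the quasi-likelihood model and an adjusted p of 0.307, in a fit that called 0% of 1743 genes. Both mice with the 2 zones had more in the core. Mac_Isg20 was 56.6% of 415 core macrophages and 9.73% of 185 margin macrophages, of which 80.0% were Mac_Gpnmb. Neutrophils of cores and margins held 1029 ± 824 (n = 6) and 700 ± 515 CPM (n = 5; adjusted p 0.712, edgeR), with 0.463% of 216 genes called, and monocytes did not pass the filter, at 212 ± 175 and 88.7 ± 42.4 CPM, in a fit with 0% called (adjusted p 0.487 with the mouse as a block, which called 68 genes). Monocytes held more in the core in 3 of 5 mice. Mon_Thbs1, the monocyte label with most Ptgs2, was 56.1% of 727 core and 8.24% of 376 margin monocytes, and Mon_Fn1 27.4% and 69.9%. Neut_Ptgs2 was 43.7% of core and 33.5% of margin neutrophils. These shares pool cells over mice, single mice weigh heavily in them, and their part in the differences was not tested. A single mouse gave 343 of 489 margin neutrophils, another sample 226 of 412 core neutrophils and another 94 of 185 margin macrophages. Mouse 17 had its core gated also on CD45 and its margin photoactivation labelled NON-MET, where the other margins carry ADJ. Leaving it out gave no call of any of the 6 genes in the 4 fits that could be run.

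The cores were also set against primary tumors, which were dissociated with another program and sequenced more deeply. In macrophages the median over samples was 6900.5 UMIs per cell in Primary and 1484 in cores. Of the 2 batches with Primary plates, 1 held no other tissue, and the part of these differences was not tested. Ptgs2 in macrophages was 195 ± 156 CPM in cores and 73.5 ± 65.8 in Primary (n = 4; log2 fold change 1.51, SE 0.68, adjusted p 0.252 by edgeR, with 4.35% of 2162 genes called). The labels of these macrophages differed, and their part in the difference was not tested. Of 194 Primary macrophages 82.5% were Mac_Cd81 and 13.4% Mac_Isg20, against 19.04% and 56.6% of those in cores. In monocytes, of which Mon_MHC-II was 8.12% in cores and 45.3% in Primary, it was 212 ± 175 and 185 ± 114 CPM (adjusted p 0.891, 1.36% called), and in Mon_Thbs1 318 ± 195 (n = 8) and 416 ± 382 (n = 4; adjusted p 0.807, 1.36% called). Only 2 primary tumors had 10 neutrophils, so sums of 5 or more cells were tried after the data were seen: Ptgs2 was 1054 ± 755 CPM in 7 cores and 4358 ± 3487 in 4 tumors. Its log2 fold change of -2.14 (SE 0.56) had an unadjusted p of 0.00127 and an adjusted p of 0.0810 in the quasi-likelihood model, which called 0% of 255 genes. Neut_Ptgs2 cells were 72.5% of 40 Primary and 43.7% of 412 core neutrophils. That label was clustered from these same cells and named for Ptgs2, so its share is no separate line of evidence. Its part in the difference was not tested.

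Neut_PMN-MDSC cells, which the authors named after myeloid-derived suppressor cells, held more Ptgs2 than most labels and, in 4 of the 5 samples with 10 or more cells, less Alox5ap than the means of the other neutrophil labels. In MET, mouse 31 held 1379 CPM of Ptgs2 and mouse 32 held 2783, and neither had an Alox5ap UMI among 13776 and 10781 UMIs. The cores of mice 17 and 37 held 744 and 1029 CPM of Ptgs2 and 308 and 450 of Alox5ap. The fifth sample, from the Relapse-free mouse 7, held 376 CPM of Ptgs2 and 2446 of Alox5ap, and also 2352 CPM of Mcpt8, a basophil protease that was at 0 in the others. Its 11 cells make the label mean of Alox5ap (641 ± 1028) unrepresentative of the other 4, whose mean was 189 ± 226 CPM. The 5 sums of 5 to 9 cells also held less Alox5ap than the means of the other neutrophil labels. Ptgs2 was above Alox5ap in some of them and below it in others. The MET section of mouse 37 (7 cells) held 3038 CPM of Ptgs2 and 456 of Alox5ap (20 and 3 UMIs), and the primary tumor of mouse 10 (5 cells) 1401 and 280 CPM (5 and 1 UMIs). The core of mouse 28 (6 cells) held 2052 CPM of Ptgs2 and 1231 of Alox5ap, the core of mouse 36 (6 cells) 557 and 929, and the margin of mouse 17 (8 cells) 342 and 1027, from 3 to 10 UMIs each. The neutrophil marker list summed to 1787 to 29537 CPM in this label, against 23128 to 153745 in Neut_Ptgs2. After thinning, 13.7% of Neut_PMN-MDSC cells held an Alox5ap UMI and 28.1% a Ptgs2 UMI, with 3 cells holding both, 36 only Ptgs2 and 16 only Alox5ap.

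Ptgs1, the other cyclooxygenase, was near the lymphoid level in most myeloid labels. Its highest mean was in Mac_Cd81, at 51.6 ± 113 CPM (n = 9), where 5 samples held none and the MET sample of mouse 31 held 348 (15 UMIs in 10 cells). Without that sample the mean was 14.6 ± 22.7 CPM (n = 8), below that of Neut_Ptgs2, so the first place rests on 1 sample. The platelet marker list summed to 139 to 5300 CPM in the same label. In Mac_Isg20 it summed to 412 to 5682 CPM, with no Ptgs1 UMI in 15 samples, which held 870721 UMIs in all against 1950615 in Mac_Cd81. The part of platelet RNA in these levels was not tested. Neut_Ptgs2 held 15.98 ± 36.6 CPM, with 22 of 29 samples at 0. Ptges was lower still, at 18.7 ± 48.1 CPM in Mac_Cd81 (3 UMIs in 246 cells), 7 of whose 9 samples held none. Without the sample of mouse 30, at 145 CPM from 2 UMIs, that mean was 2.81 CPM. Ptges was at 15.7 ± 22.02 in Neut_Camp (2 UMIs) and at most 3.64 elsewhere. Neut_Ptgs2, with the most Ptgs2, had 0 Ptges UMIs in 1404 cells. At this depth neither gene was detectable above background in most labels, which does not show that the RNA was absent.

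Ptger4, the prostaglandin E2 receptor gene, was highest in migratory dendritic cells (DC_migDC), which reached 10 cells in a sample only in primary tumors. Mice 9, 10 and 38 held 363, 151 and 157 CPM (22, 7 and 18 UMIs; mean 224 ± 121, n = 3). The next label, Mac_Cd9, held 54.3 ± 98.2 CPM (n = 11), a gap larger than either SD, and 29.4 ± 56.1 without mouse 29 (303 CPM), with a rank of 4 among the labels. Neut_Camp, the label after it, had its 4 UMIs in 1 sample. Without mouse 9 DC_migDC held 154 CPM (n = 2) and was still first. Of DC_migDC cells thinned to 500 UMIs, 5.98% held a Ptger4 UMI, against 1.09% of lymphoid cells (unthinned 20.5% in DC_migDC, at a median of 2001 UMIs per cell), which carry this gene too. In these 3 samples the label held 0 Alox5ap UMIs of 221559, and in all tissues 4.27% of its 117 cells held 1 or more, against 4.41% of lymphoid cells. The dendritic cell marker list summed to 3529 to 5238 CPM there. Means of the other labels were 42.0 CPM or lower, Neut_Lcn2 at 0.557 ± 1.94 (n = 24).

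Alox5ap was read in the sums of every myeloid label except DC_migDC, and was highest in neutrophils with granule genes. Neut_Camp held 3488 ± 1551 CPM (n = 4, 2058 to 5283), Neut_Lcn2 3416 ± 1416 (n = 24, 1533 to 6049), Neut_Ifit3 2849 ± 1235 (n = 16) and Neut_Ptgs2 2101 ± 817 (n = 29, 71.4 to 4205). Within neutrophils the order of labels was therefore the reverse of that of Ptgs2, leaving Neut_PMN-MDSC aside, although Neut_Camp held 2890 CPM without mouse 37 and then came after Neut_Lcn2. Neut_Lcn2 was above Neut_Ptgs2 in 13 of 18 samples that held both. Monocytes came next, from Mon_Fn1 (1684 ± 442, n = 54) to Mon_Ace (1244 ± 408, n = 32), with Mon_Fn1 higher in 28 of 31 shared samples. Macrophage labels held 853 to 1133 CPM, and cDC2 and cDC1 dendritic cells 774 ± 288 (n = 16) and 680 ± 353 (n = 5). Neighbouring labels in this order did not differ beyond their SDs.

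Cells with both RNAs were found in each of these neutrophil labels. Of 1492 thinned Neut_Ptgs2 cells, 236 held both Ptgs2 and Alox5ap, 357 only Ptgs2, 397 only Alox5ap and 502 neither. Of 1604 Neut_Lcn2 cells, 115 held both, 91 only Ptgs2 and 996 only Alox5ap. The thinned share of cells with Alox5ap was 69.3% in Neut_Lcn2, 62.2% in Neut_Camp, 50.5% in Neut_Ifit3 and 42.4% in Neut_Ptgs2, and 1.95% in lymphoid cells.

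Alox5ap was not called in any of the 25 fits over all batches. It passed the filter in each, with an unadjusted p under 0.05 in 2, a smallest adjusted p of 0.187 by edgeR and 0 calls by DESeq2 with its default size factors (3 with poscounts size factors). No call is drawn from the 1 batch that held both cores and primary tumors, with 1 tumor sample. The smallest adjusted p was in monocytes, with 1594, 1653 and 1729 CPM in Pre-MET and 1129, 1163 and 1416 in Normal lungs. The log2 fold change was 0.39 (SE 0.16). Mon_Fn1, the monocyte label with most Alox5ap, was 70.1% of 759 Pre-MET and 23.9% of 372 Normal monocytes, and Mon_Ace, which had least, 22.4% and 58.6%. The part of these shares in the difference was not tested. In neutrophils of the same lungs Alox5ap was at 3221, 1854 and 1870 CPM in Pre-MET and 1829, 1316 and 1602 in Normal (log2 fold change 0.51, SE 0.33, adjusted p 0.685). Within labels, Pre-MET and Normal differed by -0.15 (SE 0.29) in Mon_Ace, 0.23 (SE 0.21) in Mon_Fn1, 0.40 (SE 0.36) in Mon_MHC-II and -0.01 (SE 0.53) in Neut_Ptgs2 on the log2 scale, where 0.433%, 0.367%, 0% and 1.51% of genes were called. Dendritic cells differed by -0.21 (SE 0.51), in a fit with 0% called.

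Between MET and distal tissue the Alox5ap levels were close. Monocytes held 1533 ± 366 and 1476 ± 491 CPM (log2 fold change 0.08, SE 0.17), and 7 of 13 mice were higher in MET. Neutrophils held 2833 ± 1100 and 3039 ± 1542 CPM (-0.08, SE 0.34), macrophages 983 ± 286 and 920 ± 273 (0.27, SE 0.30) and dendritic cells 748 ± 547 and 883 ± 422 (-0.12, SE 0.53, 0% of 621 genes called). Mon_Fn1 differed by -0.01 (SE 0.17) and Mon_Ace by 0.16 (SE 0.26), each with 0% called. Mouse 26, with the lowest neutrophil Ptgs2, had 5399, 4660, 3628 and 5595 CPM of Alox5ap in distal tissue, MET, core and margin, all above the mean of their tissue.

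In cores against margins, Alox5ap differed by -0.22 (SE 0.25) in monocytes, 0.16 (SE 0.36) in macrophages, -0.47 (SE 0.46) in neutrophils and -0.22 (SE 0.31) in Mon_Fn1 (0% of 538 genes called). Within mice, the core was the higher zone in 1 of 5 for monocytes (median difference -299.9 CPM), 1 of 4 for neutrophils (-1428 CPM) and 2 of 2 for macrophages. With the mouse as a block the log2 fold changes were -0.21 (SE 0.21, adjusted p 0.744) in monocytes and -0.49 (SE 0.32, adjusted p 0.637) in neutrophils, by edgeR. In cores against primary tumors it differed by -0.23 (SE 0.27) in monocytes, 0.32 (SE 0.36) in macrophages, 0.24 (SE 0.40) in dendritic cells (0.555% called), -0.46 (SE 0.33) in Mon_Fn1 (0.59% called) and -0.32 (SE 0.32) in Mon_Thbs1. The exception in size was neutrophils in sums of 5 or more cells, at 2350 ± 723 CPM in 7 cores and 656 ± 744 in 4 primary tumors (1.67, SE 0.66, unadjusted p 0.0214 and adjusted p 0.248 in the quasi-likelihood model). In the 1 batch with both tissues the log2 fold change was 4.66, given with no test, from 2 cores with 111 cells and 1 tumor with 8 cells and 1 Alox5ap UMI, so the spread between tumors cannot be had there. The tumor neutrophils of mice 8, 9, 10 and 38 held 151, 727, 1680 and 64.6 CPM, from 1, 12, 37 and 1 UMIs. The Pre-MET lungs of mice 8, 9 and 10, which differ from the tumors in dissociation and batch as given for Ptgs2, had held 3221, 1854 and 1870. In mice 8 and 9 Alox5ap was thus lower, and Ptgs2 higher, in tumor than in lung neutrophils. Mouse 10 had the same order, with exact 95% counting intervals that overlapped for both genes (for Alox5ap 1183 to 2316 CPM in tumor and 1564 to 2217 in lung). The neutrophil marker list summed to 21701 and 64206 CPM in the 2 tumors with 10 or more neutrophils.

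Whether Ptgs2 and Alox5ap moved differently in monocytes and neutrophils was tested over the 6 mice with both cell types in MET and distal tissue. The log2 ratio of MET to distal was higher in monocytes by 0.45 for Ptgs2 (exact two-sided sign-flip permutation test, p = 0.4375, adjusted p 0.875 over the 6 genes) and lower by 0.002 for Alox5ap (p = 1). With 6 mice the smallest p such a test can give is 0.03125. After adjustment over the 6 genes, that p falls below 0.05 only if most of the 6 genes reach it. Neither Ptgs2 nor Alox5ap could thus be called on its own, and no conclusion is drawn from this test.

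Ltc4s was almost confined to 1 label. Mac_Cd9, whose cells had the alveolar macrophage marker list at 14118 to 22788 CPM, held 553 ± 205 CPM (n = 11, 184 to 884, median 522). The next label, Mac_Isg20, held 30.9 ± 70.6 (n = 15, 10 at 0) and 18.5 without its highest sample, a gap larger than either SD, and cDC1, Neut_Camp and Neut_PMN-MDSC sums held no UMI. Of Mac_Cd9 cells 14.4% held an Ltc4s UMI after thinning and 34.4% before, against 0.125% of thinned lymphoid cells.

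**Figure D4:**
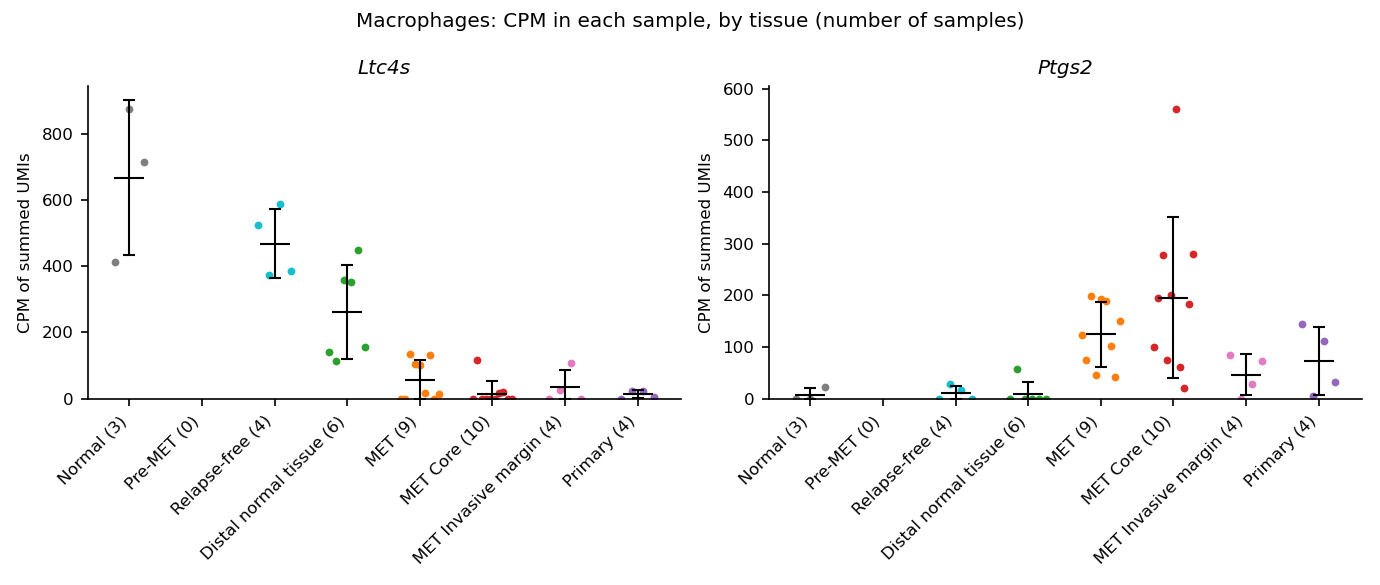
CPM of Ltc4s and Ptgs2 in all macrophages by tissue, with 1 point per mouse and lines for the mean ± SD where 3 or more samples exist. Ltc4s is at 413 to 875 CPM in Normal lungs and at 0 in 7 of 10 cores, whereas Ptgs2 is at most 27.4 CPM in Normal and Relapse-free lungs and 195 CPM on average in cores.

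Among all macrophages Ltc4s followed the tissues. Normal lungs held 413, 875 and 716 CPM (668 ± 235), Relapse-free lungs 468 ± 105 (n = 4, 374 to 588) and distal tissue 262 ± 141 (n = 6, 113 to 448). MET sections held 55.5 ± 60.2 CPM (n = 9, 3 at 0), margins 34.1 ± 51.5 (n = 4), cores 15.5 ± 36.3 (n = 10, 7 at 0) and primary tumors 12.9 ± 11.9 (n = 4). All 5 mice with both tissues had less in MET than in distal tissue, by a median of 219 CPM. The share of Mac_Cd9 among macrophages ran in the same order, at 93.0% in Normal, 80.0% in Relapse-free, 59.7% in distal tissue, 8.83% in MET, 4.86% in margins, 0.723% in cores and 0.515% in Primary. What part this share had in the Ltc4s levels was not tested. Ltc4s did not pass the filter on low counts. With mouse as a block it did, and its log2 fold change of MET to distal tissue was -1.95 (SE 0.73, adjusted p 0.0591, edgeR). DESeq2 gave -2.001 (adjusted p 0.110).

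Within the Mac_Cd9 label Ltc4s was 726 ± 258 CPM in Normal (n = 3), 533 ± 116 in Relapse-free (n = 4) and 383 ± 177 in distal samples (n = 3), and 628 in the 1 MET sample with 10 such cells, a difference that was not tested. Dendritic cells held up to 251 CPM in single samples, with means of 0 to 62.2 CPM by tissue, and monocytes and neutrophils at most 29.6 on average.

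Of 52 genes listed for these pathways, 50 had a row and 25 reached a mean of 50 CPM in a myeloid label. These were 3 of 9 genes for fatty acid release, 5 of 8 for prostanoid synthesis, 1 of 8 prostanoid receptors, 3 of 5 for transport and breakdown, 10 of 14 for lipoxygenases and leukotriene synthesis and 3 of 6 leukotriene and lipoxin receptors. Of all 52542 genes, 7487 reached that mean. Some listed genes reached it through 1 sample. Ptgir, the prostanoid receptor counted, was at 62.7 CPM in Neut_Camp and 41.6 without its highest sample. The genes named next were chosen after their values were seen. Alox5, the 5-lipoxygenase that works with FLAP, had its highest mean in Neut_Camp (159 ± 119 CPM), as had Lta4h, which makes leukotriene B4 (310 ± 136), and its receptor gene Ltb4r1 (160 ± 80.3). Pla2g7, which breaks down platelet-activating factor, was highest in Neut_Ptgs2 (600 ± 301), and Cyp4f18, which inactivates leukotriene B4, in Neut_PMN-MDSC (1036 ± 905). Cysltr1, a cysteinyl leukotriene receptor gene, was highest in cDC1 (120 ± 83.7), and Mgst3, a related glutathione transferase, in Mac_Cd9 (216 ± 153), the Ltc4s label. Dpep2, a dipeptidase that acts on leukotriene D4, was highest in Mac_Isg20 (259 ± 155). Without the highest sample of the label named, Alox5 (99.4 CPM), Pla2g7 (580.4) and Dpep2 (224) came after their next labels, and the other genes named stayed first.

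Only 12 of the 50 pathway genes passed the filter in any of the 25 fits, and 0 were called higher and 1 lower. That gene was Hpgd, which encodes the enzyme that inactivates prostaglandins and was highest in Mon_Ace (262 ± 180 CPM). In monocytes it was 133 ± 28.02 CPM in Pre-MET and 294 ± 53.0 in Normal lungs (n = 3 each), a log2 fold change of -1.17 (SE 0.28, adjusted p 0.0236, edgeR), in the fit in which 4.22% of 4953 genes were called. The call was kept without Normal mouse 3 (0.0400) and lost without Normal mouse 1 (0.124), Normal mouse 2 (0.0761), or Pre-MET mouse 8 (0.0667), 9 (0.132) or 10 (0.0932). It rests on the same batch that cannot be told apart from the Normal group, and on monocytes of which Mon_Ace was 22.4% in Pre-MET and 58.6% in Normal lungs. Within Mon_Ace, Pre-MET and Normal lungs held 385 ± 48.7 and 440 ± 91.9 CPM of Hpgd (log2 fold change -0.24, SE 0.35, adjusted p 0.891, edgeR). Within Mon_Fn1 the log2 fold change was -0.87 (SE 0.77, adjusted p 0.676, edgeR). In these fits 0.433% and 0.367% of genes were called.

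The genes whose label means ran most like those of each member are named as a description. They were picked by Pearson's r of log2(mean CPM + 10) over the 16 labels among 7487 genes reaching 50 CPM in a label. All points share libraries and cells. For Ptgs2 they were Ptgs2os2 (0.944), a long noncoding RNA at chr1:150159043-150164948 that does not overlap it, Nlrp3 (0.943), an inflammasome sensor, and Ifit3b (0.941), an interferon-induced gene. Alox5ap ran with Myo1f (0.940), Hcls1 (0.910) and Lyrm2 (0.908), of which the first is a myosin of immune cells. Ltc4s ran with Ttyh2 (0.971), Phgdh (0.928) and Adcy3 (0.925), and Ptger4 with Ezh2 (0.930), Csnk1g3 (0.925) and Dnajb12 (0.909). Ltc4s and Ptger4 stood out in 1 label each, Mac_Cd9 and DC_migDC, where the genes named with them also peaked. These r values thus lean on that label. None are named for Ptgs1 and Ptges, whose highest label means rest on single samples and which were at 0 in 5 and 8 of the 16 labels. Ptgs2 and Alox5ap had an r of 0.388 over the same 16 labels.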

How the data were processed

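The 6 genes and all gene lists were chosen with earlier results of these data known. The deposited values are raw counts: per the labels and methods, the authors sorted 1 cell per well with doublets gated out, sequenced in 12 batches, demultiplexed with bcl2fastq 2.15.0.4 (submitters' notes), mapped to mm10 and counted UMIs per gene. The annotation version behind the counts is not given in the sources used here. Of 24020 cells in the authors' annotation, each with at least 500 UMIs, 595 labelled Erythrocytes, Outlier or Tumor were left out, leaving 13014 myeloid cells, and 92 spike-in rows were dropped. No doublet caller was run. No well identifier was on more than 1 plate.

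Counts were summed per mouse, tissue and label or lineage (10 or more cells). Groups were compared by edgeR 4.0.16's quasi-likelihood test (R 4.3.3, TMM, filterByExpr, robust, Benjamini-Hochberg over all genes tested, threshold 0.05), in 20 planned and 5 added fits with 3 or more samples per group (4 within labels, except the added ones). The fitting code was tested on simulated counts. Alternatives were DESeq2 1.42.0 (poscounts size factors were run first and replaced by the default after results were seen), RLE, no filter, other cell and UMI minimums, a batch term, left-out mice and mouse as replicate block. The block uses samples of 1 mouse, whose deviations correlated (mean r 0.184 to 0.442 within mice). Named genes are the 6 members, called pathway genes and the 3 most alike per member (none for Ptgs1 and Ptges, at too few UMIs), and the other pathway genes, named for their label levels, were chosen after values were seen. Intervals, floors and thinned shares cover counting error only. DC_pDC (73 cells) had no sum of 10 cells.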

Additional observations from a re-analysis of the deposited data

Results flagged for a closer look

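In 2 of 40 groups tested, 1 sample stood far from the rest, and chance gives about 1 in 20. Alox5ap in dendritic cells of the MET section of mouse 24 was 2091 CPM (94 UMIs, 12 cells), where the next highest of 10 samples was 1056 and the lowest 290. Ptgs2 in macrophages of the core of mouse 28 was 560 CPM (27 UMIs, 24 cells), where the next highest of 10 was 280 and the lowest 20.7. Cells labelled Tumor, which were in no comparison (94 cells, 518222 UMIs), held 129 CPM of Ptgs1 (67 UMIs in 9 cells from 5 samples) and 129 CPM of Ptges (67 UMIs in 8 cells from 3 samples), each with an exact 95% Poisson interval of 100 to 164 CPM for counting error. Ptgs2 was at 11.6 CPM and Alox5ap at 44.4 in these cells.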

How the results depend on the processing

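Of 249 recomputed counts of called members, 236 stayed on the same side, 6 gained and 7 lost calls, and no direction reversed. With mouse as replicate block 0 members were called in each of 11 fits, and the block changed no call of a member; counts over all genes that it moved stand beside the results. DESeq2 and edgeR without the low-count filter each called 1 member in MET against distal macrophages, and poscounts size factors called 2. Poscounts also called 1 member in each of Pre-MET against Normal monocytes and Mon_Fn1, and 0 in neutrophils, where no filter and sums of 20 cells also gave 0 and leaving out 1 mouse gave 0 to 1. Restricting core against Primary neutrophils to the 1 batch with both tissues gave 1 call, Alox5ap, which is not used, since its tumor arm was 1 sample with 1 Alox5ap UMI and no spread. Of 83 counts with 1 mouse left out, 79 did not change. The cause of each change was not tested. Ptgs2 in Pre-MET neutrophils had adjusted p values of 0.00830 (RLE), 0.0133 (DESeq2), 0.986 (poscounts), 0.603 (no filter) and 0.0726 (20 cells). For that gene the fit with 20 cells is the one without Normal mouse 1. Of 380 levels recomputed, including each label without its highest sample (added after seeing the data), 366 moved by under 1 SD. Pre-MET macrophages had no sample of 10 cells, and core against margin dendritic cells could not be fitted with 1 margin sample. Ptgs1, Ptges, Ptger4 and Ltc4s passed the low-count filter in 0 of 25 fits, so no edgeR test of them stands in these fits, and whether depth or low expression sets this was not tested.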
